A study of Mus musculus with 6 samples.

Results

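The 10 genes of EGF signaling described here were measured in AOM/DSS-induced colorectal tumors and were chosen by name, as 5 ligands (*Areg*, *Ereg*, *Epgn*, *Hbegf* and *Tgfa*), 3 receptors (*Egfr*, *Erbb2* and *Erbb3*) and a pair of MAPK feedback genes (*Dusp6* and *Spry4*). All 10 were found among the 54167 genes of the deposited table. RNA-seq covered 6 tumors of C57BL/6J mice. The 3 *Trp53fl/fl* tumors came from mice whose *Trp53* alleles carry loxP sites and stay intact without Cre, and the 3 *VP* tumors from mice that carried the same alleles together with *Pvillin-Cre*, which acts in intestinal epithelial cells and leaves *Trp53* in the stroma and immune cells. By the study's methods, all mice were males that received azoxymethane (AOM, 10 mg/kg), a carcinogen, at 8 weeks of age and then repeated cycles of 7 days of 2.5% dextran sulfate sodium (DSS), which damages the colon lining, and the tumors were dissected on day 98. Values were TPM, a transcript measure scaled for transcript length and for the total of each tumor, so that levels of different genes within a tumor can be compared. Fold changes were taken on log2(TPM + 1), *VP* minus *Trp53fl/fl*, and limma tests covered 15117 genes, those that reached 1 TPM in 3 or more tumors. Of the 10 genes, 9 passed this filter.

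EGF family ligands are made as membrane-anchored precursors and are released by ADAM proteases. They bind receptor tyrosine kinases of the ErbB family, which pair up and switch on RAS, RAF, MEK and ERK (the MAPK cascade). ERK in turn induces its own brakes, such as the phosphatases of the DUSP family and the Sprouty proteins, so that the mRNA of these genes is widely used as a readout of the cascade. In the colon, EGF ligands drive the repair of the epithelium after injury, and ErbB signaling feeds the growth of intestinal tumors.

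The promoters of 3 genes are shown here, each from 250 bases before to 50 bases after the gene start in RefSeq (GRCm38.p6, plus strand). *Areg* is shown as the ligand with the highest mean level, and *Tgfa* and *Egfr* as the ligand and the receptor whose TPM did not overlap between the genotypes. Capitals mark matches, on either strand, to the cAMP response element (CRE, TGACGTCA), the AP-1 motif (TGANTCA), an ETS core (CCGGAA) or the p53 half-site.
*Areg*, chr5:91139349-91139648: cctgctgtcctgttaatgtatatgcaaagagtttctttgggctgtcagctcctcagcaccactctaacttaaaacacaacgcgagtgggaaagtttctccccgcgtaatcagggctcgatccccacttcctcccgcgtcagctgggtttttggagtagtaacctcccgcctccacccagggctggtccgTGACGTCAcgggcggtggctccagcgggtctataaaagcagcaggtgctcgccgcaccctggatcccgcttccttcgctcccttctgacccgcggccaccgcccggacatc
*Tgfa*, chr6:86194972-86195271: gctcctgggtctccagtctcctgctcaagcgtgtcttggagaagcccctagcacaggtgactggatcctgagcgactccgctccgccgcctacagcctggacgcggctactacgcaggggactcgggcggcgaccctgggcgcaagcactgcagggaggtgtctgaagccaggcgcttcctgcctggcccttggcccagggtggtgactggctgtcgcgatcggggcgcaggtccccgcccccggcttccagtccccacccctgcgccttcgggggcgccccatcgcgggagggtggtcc
*Egfr*, chr11:16751953-16752252: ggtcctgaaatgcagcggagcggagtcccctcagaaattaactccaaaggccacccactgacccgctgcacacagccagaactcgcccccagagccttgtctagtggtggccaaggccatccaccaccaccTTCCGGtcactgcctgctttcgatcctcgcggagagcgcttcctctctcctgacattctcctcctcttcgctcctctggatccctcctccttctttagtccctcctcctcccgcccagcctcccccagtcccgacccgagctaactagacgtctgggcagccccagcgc
The *Areg* window held a CRE that began 61 bases before the gene start. A CRE was present in 1.79% of the 32851 promoter windows of this length. The *Egfr* window held an ETS core, on the minus strand, that began 119 bases before the gene start, and 14.9% of all windows held this core. The AP-1 motif, found in 7.81% of all windows, and the p53 half-site, found in 8.36%, were absent from these 3 windows, and the *Tgfa* window held none of the 4 motifs. Windows of 6 of the 10 genes were searched for these motifs, and those of the other genes are not reported here. These matches are letters only, and no binding was measured.

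*Areg*, *Ereg* and *Epgn* also share a place in the genome. In the GENCODE M21 annotation of GRCm38 they lie on the plus strand of chromosome 5, with *Epgn* from 91027464 to 91035215, *Ereg* from 91074622 to 91093646 and *Areg* from 91139599 to 91148432. *Btc*, which encodes another EGF ligand, betacellulin, follows from 91357261 to 91402994 on the minus strand. These 4 genes span 375.5 kb, and no other protein-coding gene is annotated between them. *Tgfa* lies apart, on chromosome 6 from 86195223 to 86275719. *Egfr* (16752203 to 16918158) and *Erbb2* (98412470 to 98437716) are both on chromosome 11, and *Dusp6* (99263231 to 99267489) and *Erbb3* (128567523 to 128589652) are both on chromosome 10.

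The deleted gene was measured first. *Trp53* was at 124.94, 99.30 and 147.45 TPM in *Trp53fl/fl* replicates and at 38.45, 32.79 and 27.83 TPM in *VP* replicates (log2 fold change -1.87, limma adjusted p = 0.0207), so the values went with the genotype labels. Here and below, values are given in the order of replicates 1, 2 and 3. All 12 epithelial markers, among them *Epcam*, *Krt8* and *Cdx2*, passed the expression filter. Their summed TPM lay between 10630.25 and 11087.04 in *Trp53fl/fl* tumors and between 12000.23 and 13033.44 in *VP* tumors. The summed TPM of 11 neutrophil markers lay between 370.33 and 704.94 in *Trp53fl/fl* tumors and between 1191.83 and 2017.16 in *VP* tumors. Both sums were thus higher in every *VP* tumor, with positive log2 fold changes for 10 of the 12 epithelial and all 11 neutrophil markers. Among the epithelial markers, only *Krt19*, *Lgals4* and *Cldn7* did not overlap between the genotypes. The log2 fold changes of *Epcam*, *Krt18* and *Cdh1* were 0.003, 0.004 and 0.024. Of the neutrophil markers, *Camp* was listed at 0 in the 3 *Trp53fl/fl* tumors. The sums of 7 endothelial markers (79.43 to 97.59 against 98.85 to 103.94 TPM) did not overlap either, whereas those of macrophage, fibroblast, smooth muscle, T cell, B and plasma cell and mast cell markers did. The read depth behind a TPM value is unknown here.

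None of the 9 genes passed the limma adjustment, with adjusted p-values between 0.362 and 0.935, while 0.165% of all genes tested passed, 0.0794% as higher and 0.086% as lower in *VP* tumors. At this threshold, no difference between the genotypes could be told from the spread of 3 against 3 tumors for any of them. On the log2 scale, 7 of the 9 had higher and 2 had lower fitted means in *VP* tumors, and the median log2 fold change was 0.32, against -0.07 for all genes tested. *Hbegf* and *Tgfa* had unadjusted limma p-values under 0.05, *Hbegf* as higher and *Tgfa* as lower in *VP* tumors. Of all genes tested, 12.5% were under this level, 4.51% as higher and 8% as lower. The genotypes did not overlap for *Tgfa*, *Egfr* and *Spry4*, as for 19.3% of all genes tested. *Egfr* and *Spry4* were higher in every *VP* tumor, as were 6.03% of all genes, and *Tgfa* was lower, as were 13.3%. In bulk tumors, fewer cells that express a gene and less RNA per cell cannot be told apart.

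**Figure D1:**
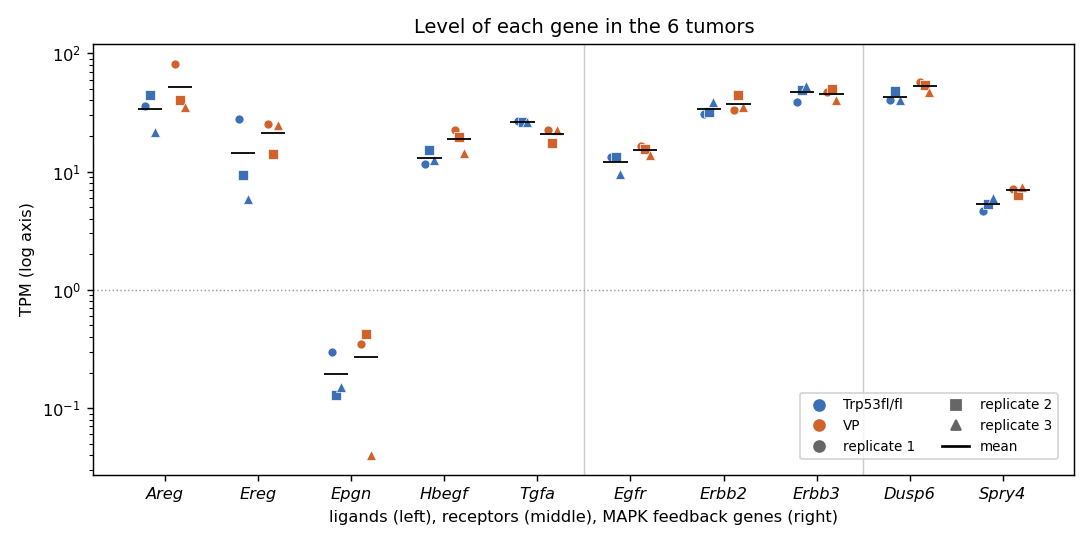
Each point is the TPM of 1 gene in 1 tumor (log axis), with shapes for the replicates and short lines for the mean of 3 tumors; the dotted line is 1 TPM. *Epgn* lies below 1 TPM in all 6 tumors, and the *Ereg* points of the *Trp53fl/fl* tumors spread from 5.90 to 27.72 TPM.

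*Areg* (ENSMUSG00000029378) encodes amphiregulin, a ligand of EGFR. It was at 35.69, 44.03 and 21.67 TPM in *Trp53fl/fl* replicates and at 81.95, 39.96 and 35.07 TPM in *VP* replicates. The value of *VP* replicate 1 stood well above the other 5, and the remaining *VP* values fell within the *Trp53fl/fl* range. The means were 33.8 ± 11.3 TPM and 52.3 ± 25.8 TPM (SD, n = 3 each). The log2 fold change was 0.57 (95% interval -0.30 to 1.44, limma adjusted p = 0.534). Without *VP* replicate 1 the log2 fold change was 0.20.

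*Ereg* (ENSMUSG00000029377) encodes epiregulin, which binds EGFR and ERBB4. It was at 27.72, 9.32 and 5.90 TPM in *Trp53fl/fl* replicates and at 25.13, 13.98 and 24.98 TPM in *VP* replicates. Both the highest and the lowest of the 6 values belonged to *Trp53fl/fl* tumors, and the highest was 4.70 times the lowest, so the *VP* tumors lay inside the *Trp53fl/fl* range. Its log2 fold change of 0.77 was the largest of the 9 and also had the widest interval, from -0.43 to 1.98 (limma adjusted p = 0.546). It was 1.36 without *Trp53fl/fl* replicate 1 and 0.33 without *Trp53fl/fl* replicate 3. *Ereg* is overlapped on the opposite strand by *Gm19610*, which was at 0.83 to 2.29 TPM, and the strand setting of the authors' counting is not given in the sources used here.

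*Areg* and *Ereg* are neighbours, but their ratio was not fixed. It ran from 1.29 to 4.72 in the *Trp53fl/fl* tumors and from 1.40 to 3.26 in the *VP* tumors. *Trp53fl/fl* replicate 1 combined the highest *Ereg* of all tumors with a middling *Areg*, and *VP* replicate 1 combined the highest *Areg* with the second-highest *Ereg*.

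*Hbegf* (ENSMUSG00000024486) encodes heparin-binding EGF-like growth factor, a ligand of EGFR and ERBB4. It was at 11.51, 15.15 and 12.54 TPM in *Trp53fl/fl* replicates and at 22.56, 19.50 and 14.47 TPM in *VP* replicates. *VP* replicate 3 lay below *Trp53fl/fl* replicate 2, so the genotypes overlapped by this single tumor. The means were 13.1 ± 1.88 and 18.8 ± 4.08 TPM (SD, n = 3 each). The log2 fold change of 0.48 had a 95% interval of 0.04 to 0.93 and a limma adjusted p of 0.375, with an unadjusted limma p of 0.0371.

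*Tgfa* (ENSMUSG00000029999) encodes transforming growth factor alpha, a ligand of EGFR, and was the only ligand with a lower fitted mean in *VP* tumors. It was at 26.92, 26.16 and 26.49 TPM in *Trp53fl/fl* replicates and at 22.30, 17.60 and 22.53 TPM in *VP* replicates. The 3 *Trp53fl/fl* tumors were nearly alike and all above the *VP* tumors. The means were 26.5 ± 0.381 and 20.8 ± 2.78 TPM (SD, n = 3 each). The log2 fold change was -0.34 (95% interval -0.65 to -0.04). Its unadjusted limma p of 0.0319 was the smallest of the 9, and it did not pass the adjustment (adjusted p = 0.362). Each of the 5 fits without 1 of *Trp53fl/fl* replicates 1 to 3, *VP* replicate 1 or *VP* replicate 3 gave -0.40 to -0.33, and the fit without *VP* replicate 2 gave -0.23.

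*Epgn* (ENSMUSG00000035020) encodes epigen, a low-affinity EGFR ligand. It was at 0.30, 0.13 and 0.15 TPM in *Trp53fl/fl* replicates and at 0.35, 0.42 and 0.04 TPM in *VP* replicates. It stayed below 1 TPM in every tumor and was not tested.

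**Figure D2:**
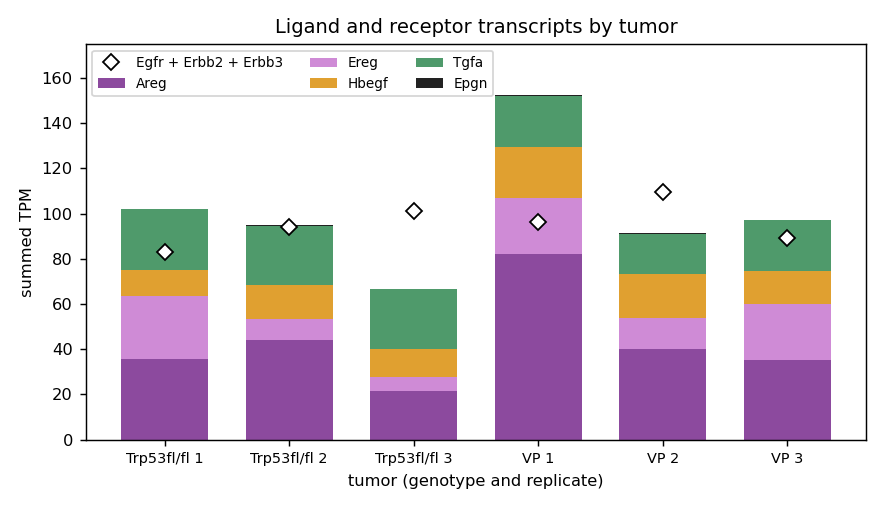
Bars stack the TPM of the 5 ligands in each tumor, and open diamonds give the summed TPM of *Egfr*, *Erbb2* and *Erbb3*. The ligand sum ran from 66.75 TPM in *Trp53fl/fl* replicate 3 to 152.29 TPM in *VP* replicate 1, and *Areg* was the largest part in 5 of the 6 bars, with *Tgfa* larger in *Trp53fl/fl* replicate 3.

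Taken as a sum, the 5 ligands came to 102.14, 94.79 and 66.75 TPM in *Trp53fl/fl* replicates and to 152.29, 91.46 and 97.09 TPM in *VP* replicates. The genotypes overlapped, and *VP* replicate 1 alone lay above the rest. In *Trp53fl/fl* tumors the order of mean levels was *Areg* (33.8 TPM), *Tgfa* (26.5 TPM), *Ereg* (14.3 TPM), *Hbegf* (13.1 TPM) and *Epgn* (0.193 TPM). In *VP* tumors it was *Areg* (52.3 TPM), *Ereg* (21.4 TPM), *Tgfa* (20.8 TPM), *Hbegf* (18.8 TPM) and *Epgn* (0.270 TPM). Only *Epgn* was clear of its neighbour in *Trp53fl/fl* tumors, whereas in *VP* tumors *Areg* was clear of *Ereg* as well. All other neighbours overlapped in their range over the 3 tumors.

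The share of *Tgfa* in the ligand sum was 26.4%, 27.6% and 39.7% in the *Trp53fl/fl* tumors and 14.6%, 19.2% and 23.2% in the *VP* tumors. These shares did not overlap, which follows in part from the *Tgfa* levels given above. The share of *Areg* was 32.5% to 46.5% in *Trp53fl/fl* tumors and 36.1% to 53.8% in *VP* tumors, with overlap. The share of *Hbegf* ran from 11.3% to 18.8% and from 14.8% to 21.3%, also with overlap.

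Among the receptors, *Egfr* (ENSMUSG00000020122) encodes the receptor for all 5 ligands. It was at 13.36, 13.27 and 9.53 TPM in *Trp53fl/fl* replicates and at 16.32, 15.51 and 13.81 TPM in *VP* replicates. Every *VP* value lay above every *Trp53fl/fl* value, but the lowest *VP* tumor was only slightly above the highest *Trp53fl/fl* tumors. The log2 fold change was 0.32 (95% interval -0.06 to 0.71, limma adjusted p = 0.448).

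*Erbb2* (ENSMUSG00000062312) encodes the receptor that binds no ligand of its own and acts as a partner of the others. It was at 30.57, 32.11 and 38.53 TPM in *Trp53fl/fl* replicates and at 33.03, 44.43 and 34.92 TPM in *VP* replicates. The genotypes overlapped broadly, and the log2 fold change was 0.14 (95% interval -0.22 to 0.50, limma adjusted p = 0.707). *Mien1*, at 120.35 to 149.44 TPM, overlaps *Erbb2* on the opposite strand.

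*Erbb3* (ENSMUSG00000018166) encodes the neuregulin receptor, whose own kinase is weak. It was at 38.95, 48.86 and 52.95 TPM in *Trp53fl/fl* replicates and at 46.87, 49.59 and 40.26 TPM in *VP* replicates. The *VP* values lay within the *Trp53fl/fl* range, with a log2 fold change of -0.03 (95% interval -0.38 to 0.31, limma adjusted p = 0.935). The sign of this value changed with the scaling of the TPM and with single tumors left out, to 0.04 with median-of-ratios rescaling.

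The order of the receptors was the same in both genotypes. *Erbb3* was above *Erbb2*, and *Erbb2* above *Egfr*, in each of the 6 tumors. *Egfr* was clear of *Erbb2* in both genotypes, while the ranges of *Erbb2* and *Erbb3* overlapped in *VP* tumors. The summed TPM of the receptors was 82.88, 94.24 and 101.01 in the *Trp53fl/fl* tumors and 96.22, 109.53 and 88.99 in the *VP* tumors. The receptor sum thus varied less from tumor to tumor than the ligand sum, although single genes did not all follow this, as *Tgfa* varied less than *Egfr*. The ratio of ligand to receptor TPM ran from 0.661 to 1.23 in *Trp53fl/fl* tumors and from 0.835 to 1.58 in *VP* tumors. ERBB4, the remaining family member, had hardly any transcript, with *Erbb4* between 0 and 0.07 TPM.

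*Dusp6* (ENSMUSG00000019960) encodes a phosphatase that inactivates ERK. It was at 40.51, 48.13 and 40.38 TPM in *Trp53fl/fl* replicates and at 56.87, 54.01 and 47.27 TPM in *VP* replicates. The genotypes overlapped only because *VP* replicate 3 lay just below *Trp53fl/fl* replicate 2. The means were 43.0 ± 4.44 and 52.7 ± 4.93 TPM (SD, n = 3 each). The log2 fold change was 0.29 (95% interval -0.004 to 0.58, limma adjusted p = 0.403).

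*Spry4* (ENSMUSG00000024427) encodes a Sprouty protein that restrains signaling from receptor tyrosine kinases to ERK. It was at 4.64, 5.36 and 5.93 TPM in *Trp53fl/fl* replicates and at 7.14, 6.29 and 7.37 TPM in *VP* replicates. All *VP* tumors were above all *Trp53fl/fl* tumors at these low levels. The means were 5.31 ± 0.646 and 6.93 ± 0.569 TPM (SD, n = 3 each), and the log2 fold change of 0.33 had an interval of -0.02 to 0.69 (limma adjusted p = 0.416).

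**Figure D3:**
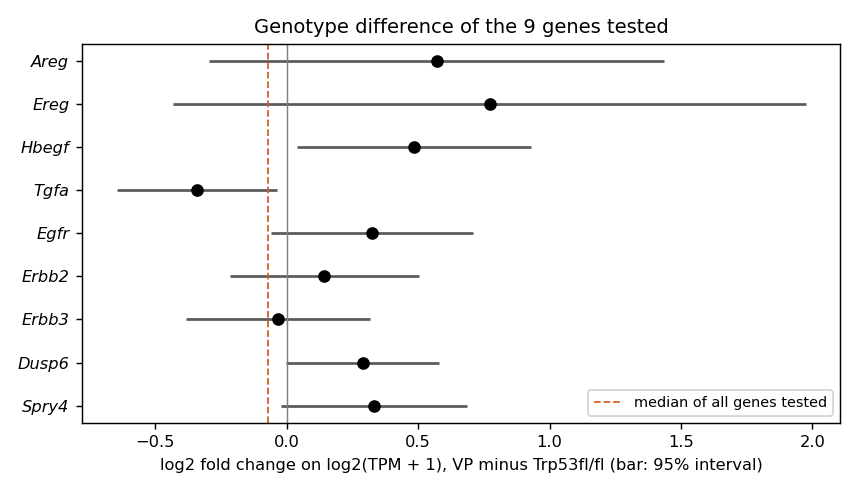
Points are log2 fold changes of the 9 genes tested, *VP* minus *Trp53fl/fl* on log2(TPM + 1), with their 95% intervals from limma, and the dashed line is the median of all genes tested. The intervals of *Hbegf* and *Tgfa* do not reach 0, on opposite sides, and that of *Ereg* is the widest.

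Tumor by tumor, *VP* replicate 1 held the highest value of 4 of the 9 genes (*Areg*, *Hbegf*, *Egfr* and *Dusp6*) and the lowest of none. The lowest values were in *Trp53fl/fl* replicates 1 and 3 for 4 genes each. Within *Trp53fl/fl* tumors, the highest value was 1.03 times the lowest for *Tgfa*, 2.03 times for *Areg* and 4.70 times for *Ereg*.

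The epithelial marker sum was higher in every *VP* tumor than in every *Trp53fl/fl* tumor. *VP* replicate 1, which held the highest value of 4 of the 9 genes, had the lowest sum of the 3 *VP* tumors. *VP* replicates 2 and 3 had nearly the same sum, 13033.44 and 13021.09 TPM, with *Erbb2* at 44.43 and 34.92 TPM. When the TPM of each tumor were divided by the mean of the 12 epithelial markers, only *Tgfa* remained without overlap, at a ratio of means (*VP* over *Trp53fl/fl*) of 0.674 in place of 0.785. This mean was higher in every *VP* tumor, so the division could not undo a separation with lower *VP* values, such as that of *Tgfa*. The ratio for *Egfr* went from 1.26 to 1.08, that for *Spry4* from 1.31 to 1.12 and that for *Dusp6* from 1.23 to 1.05, all 3 with overlap. The division lowers this ratio for every gene, so such falls are not particular to these genes. With median-of-ratios rescaling, which sets the typical gene equal across tumors, 5 genes did not overlap, since *Hbegf* and *Dusp6* joined *Tgfa*, *Egfr* and *Spry4*. This rescaling raised all *VP* values and lowered all *Trp53fl/fl* values, so *Egfr* and *Spry4* could not lose their separation under it. Both counts of overlap were added after the data were seen, and the share of all genes without overlap was not counted under either scaling. With the rescaling, the ratio was 1.52 for *Hbegf*, 1.29 for *Dusp6* and 0.829 for *Tgfa*, the last against 0.785 as deposited. The directions of *Erbb2* and *Erbb3* depended on the scaling, with *Erbb2* at 0.949 after division by the epithelial markers and *Erbb3* at 1.03 after the rescaling. The neutrophil marker sum was higher in every *VP* tumor too, and the part of any cell type in these results was not tested.

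**Figure D4:**
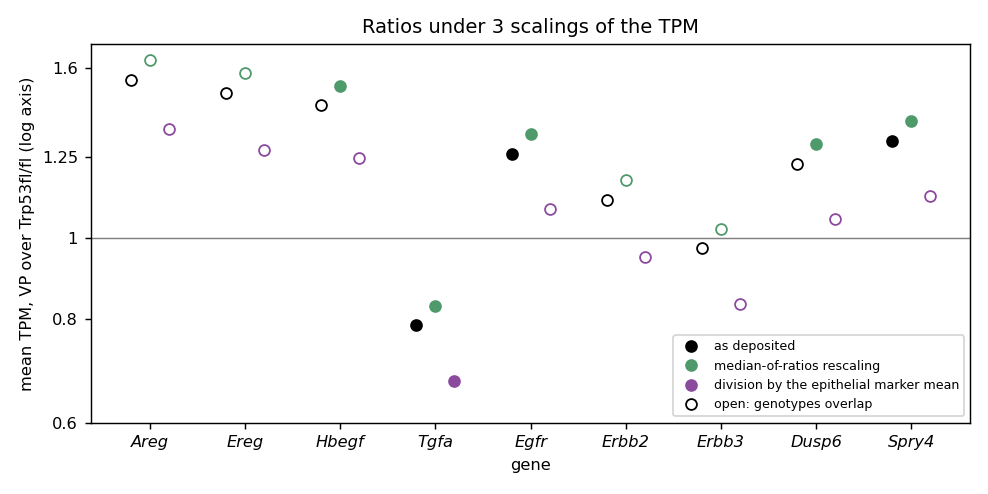
Points are ratios of mean TPM, *VP* over *Trp53fl/fl* (log axis), for the 9 genes as deposited, after median-of-ratios rescaling and after division by the epithelial marker mean; filled points mark genes whose 3 and 3 tumors do not overlap. *Tgfa* is filled and below 1 under all 3 scalings, whereas *Egfr* and *Spry4* are filled under the first 2 only. The epithelial division could not undo the separation of *Tgfa*, nor the rescaling that of *Egfr* and *Spry4*.

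The rest of the pathway was examined with 6 lists. None of their 67 tested genes passed the limma adjustment, and 8 had an unadjusted limma p under 0.05, 2 with higher and 6 with lower values in *VP* tumors. Over all genes tested this share was 12.5% (4.51% higher, 8% lower), so the count was near the background. Without overlap between the genotypes, 3 of the 67 were higher and 7 were lower in *VP* tumors. Of all genes tested, 6.03% and 13.3% were, so neither count was above the background. Among the other ligands and the fourth receptor, 3 of 7 genes were tested, and *Btc* (log2 fold change 0.09) and *Nrg1* (-0.79, limma adjusted p = 0.423) marked the ends. *Nrg1*, which encodes the neuregulin that binds ERBB3, was at 23.80, 17.84 and 15.51 TPM in *Trp53fl/fl* replicates and at 7.97, 7.06 and 19.67 TPM in *VP* replicates. *VP* replicates 1 and 2 were below all *Trp53fl/fl* tumors and *VP* replicate 3 was not. *Egf* itself was at 0.68 to 1.57 TPM and was not tested.

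The 7 genes of ligand release had a median log2 fold change of -0.05. *Rhbdf1*, which encodes iRhom1, a partner of ADAM17, was at 22.10, 18.93 and 22.53 TPM in *Trp53fl/fl* replicates and at 23.54, 26.75 and 27.81 TPM in *VP* replicates, without overlap (limma adjusted p = 0.408). The lowest value was that of *Adam10*, a sheddase, at -0.37 with overlap between the genotypes.

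Of 12 receptor inhibitors and turnover genes, 3 did not overlap, against 19.3% of all genes tested. *Cblc*, which encodes a ubiquitin ligase of the CBL family, was at 73.00, 60.50 and 52.56 TPM in *Trp53fl/fl* replicates and at 111.66, 80.66 and 81.80 TPM in *VP* replicates (log2 fold change 0.55, limma adjusted p = 0.323). Its relative *Cbl* went the other way, at 17.66, 16.75 and 15.83 TPM against 13.62, 14.40 and 12.87 TPM (log2 fold change -0.28, limma adjusted p = 0.392). *Socs4*, which encodes a SOCS protein that limits EGFR, was at 11.28, 14.83 and 8.99 TPM against 8.56, 6.71 and 7.45 TPM (log2 fold change -0.55, limma adjusted p = 0.348). *Cblc* was the only gene of this list with higher values in every *VP* tumor.

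The 20 genes of the cascade from receptor to ERK had a median log2 fold change of -0.11. Of them, 7 were above and 13 below 0, near the background, as about 61% of all genes tested were below 0. Of these 20, 5 (among them *Sos1*, *Nras*, *Braf* and *Rasa1*) were lower in every *VP* tumor than in every *Trp53fl/fl* tumor, as were 13.3% of all genes tested, and none was higher in every *VP* tumor. *Sos1*, which encodes an exchange factor that loads RAS with GTP, was at 9.38, 9.73 and 8.05 TPM in *Trp53fl/fl* replicates and at 7.06, 6.79 and 6.25 TPM in *VP* replicates (log2 fold change -0.38, limma adjusted p = 0.349). *Rasa1* encodes a GTPase-activating protein that turns RAS off. It was at 23.26, 37.55 and 17.50 TPM against 17.20, 13.89 and 14.23 TPM, with the lowest log2 fold change of the list at -0.69 (limma adjusted p = 0.366). Those of *Braf* and *Nras* on this scale were -0.37 and -0.26. *Grb2*, the adaptor that binds the receptor, marked the upper end at 0.23.

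Of the other ERK feedback genes, 10 of 11 were tested, and their median log2 fold change was -0.07. *Dusp5*, which encodes a nuclear ERK phosphatase, was at 4.85, 4.10 and 5.76 TPM in *Trp53fl/fl* replicates and at 9.29, 5.82 and 6.68 TPM in *VP* replicates (log2 fold change 0.47, limma adjusted p = 0.404). It was the only gene of this list without overlap, and its margin between the genotypes was small. *Spred3* had the lowest log2 fold change, at -0.63. *Dusp4* (-0.44) and *Spry2* (0.07), named after their values were seen as close relatives of *Dusp6* and *Spry4*, did not share a direction, and neither passed the test.

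The ERK-induced transcription factors and early genes spread widely, with 8 of 15 above 0 and a median log2 fold change of 0.04. *Egr1* was at 12.07, 15.30 and 25.49 TPM in *Trp53fl/fl* replicates and at 46.70, 28.50 and 17.17 TPM in *VP* replicates, with a log2 fold change of 0.73 and overlap between the genotypes. *Fosb* marked the other end at -0.74. *Egr1* and *Fosb* are both immediate early genes, and their limma adjusted p-values were 0.473 and 0.378.

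**Figure D5:**
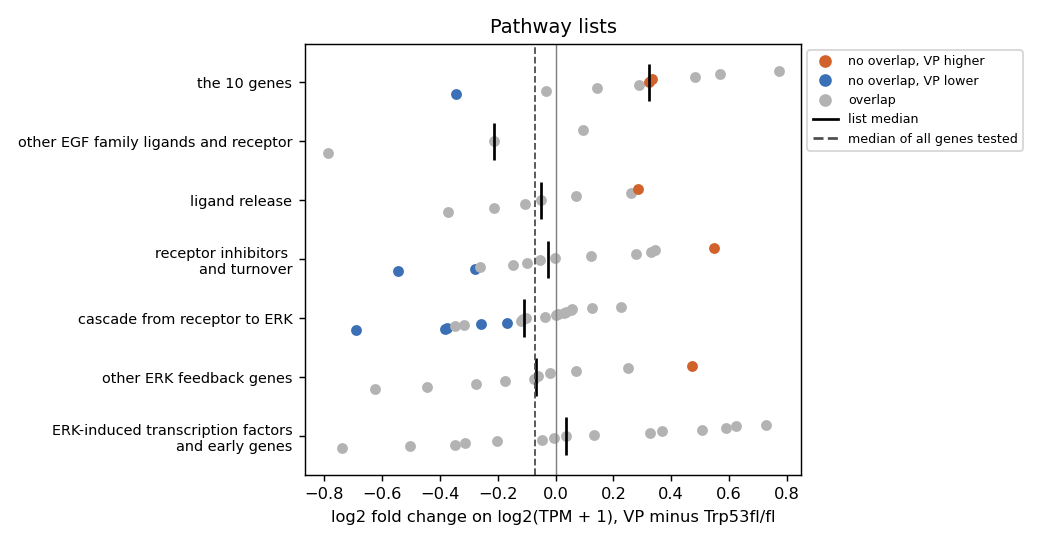
Each point is the log2 fold change of 1 tested gene, *VP* minus *Trp53fl/fl* on log2(TPM + 1), in rows for the 10 genes and the 6 other lists, with a black bar for the list median and a dashed line for the median of all genes tested. The 5 colored points of the cascade row all lie below 0, and the medians of the 6 other lists lie between -0.21 and 0.04.

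The genes with the most similar course over the 6 tumors were sought for *Tgfa*, *Egfr* and *Spry4* among 11444 genes, by the root mean square difference of log2(TPM + 1) after each gene was centred on its own mean. For *Tgfa* these were *Notum*, a secreted Wnt antagonist, *Arl2bp* and *Zfp747*, with differences of 0.0449, 0.0490 and 0.0522. *Notum* was at 229.04, 242.45 and 226.84 TPM in *Trp53fl/fl* replicates and at 199.91, 162.21 and 205.87 TPM in *VP* replicates. For *Egfr* they were *Sowahb*, *Clec4a2* and *Gm49339* (0.0626, 0.0639 and 0.0765), and for *Spry4* they were *Prdx4*, a peroxiredoxin, *Rbks* and *Galns* (0.0304, 0.0360 and 0.0449). With 6 tumors and this many genes, close matches are a description of these libraries only.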

How the data were processed

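RNA-seq of 6 tumors was analysed, 3 per genotype, each assigned to its column through the code in its label. The authors deposited TPM per gene with 2 decimals, from poly(A)-selected libraries read from both ends. The study's methods describe no pooling and do not say whether each tumor came from a different mouse. The submitters' processing notes name HISAT2, StringTie and the build mm9. Versions, annotation and strand setting are not given in the sources used here. Coordinates and promoters printed here are those of GRCm38, joined by gene ID or symbol, and not of mm9. TPM keep no depth, so no count test was made.

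From the deposited TPM, log2(TPM + 1) of 15117 genes, those reaching 1 TPM in 3 or more tumors, was tested with limma 3.58.1 in R 4.3.3 (empirical Bayes with trend, Benjamini-Hochberg adjustment over all genes tested). The fit was tested on simulated data, with planted changes larger than those of any of the genes described here. That test does not show whether changes of their size would be called. P-values measure the spread between tumors. The genes and lists were chosen with earlier results of these data known. Named were the 10 genes, *Trp53* and, from each other list, genes without overlap and the largest rise and fall in log2 fold change. Some genes of the cascade list are not reported here by name. Alternatives were quantile normalization, median-of-ratios rescaling, centring on 12 epithelial markers, a mean TPM of 5 as the filter or none, a pseudocount of 0.1, the replicate block, no trend and each tumor left out.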

Additional observations from a re-analysis of the deposited data

How the results depend on the processing

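The 9 genes were refitted under 14 alternatives each, 126 fits in all, and none passed the limma adjustment in any of them. The smallest adjusted p was 0.157, for *Tgfa* with epithelial centring. Changing the filter, adding the replicate block or dropping the trend leaves each log2 fold change as it was, so those directions could not change. With these fits included, the direction was the same in 122 of the 126 fits. The exceptions were *Erbb2*, at -0.014 with epithelial centring, and *Erbb3*, at 0.042 with median-of-ratios rescaling, 0.056 without *Trp53fl/fl* replicate 3 and 0.050 without *VP* replicate 3. Centring moved the median of all genes tested from -0.07 to -0.23, and relative to that median *Erbb2* was at 0.21 and *Erbb3* at 0.04. *Egfr*, *Spry4* and *Dusp6* were at 0.39, 0.40 and 0.36 relative to it. These were the same without the centring, which shifts all genes alike. With a tumor left out, the log2 fold change ran from 0.20 to 0.80 for *Areg*, from 0.33 to 1.36 for *Ereg*, from 0.35 to 0.65 for *Hbegf*, from -0.16 to 0.06 for *Erbb3*, from 0.18 to 0.40 for *Egfr*, from 0.02 to 0.24 for *Erbb2*, from 0.23 to 0.37 for *Dusp6* and from 0.25 to 0.40 for *Spry4*. The 3 genes without overlap became 5 with median-of-ratios rescaling and 1 with division by the epithelial markers. The share of all genes without overlap was not counted under these scalings. The mean ligand sum was 25.7 TPM higher in *VP* tumors, 31.1 with the rescaling and 11.2 with that division, 6.38 without *VP* replicate 1 and 15.1 without *Trp53fl/fl* replicate 3, the last pair being chosen after the data were seen.

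The 25 genes called over the whole table became 7 without the filter, 10 with the replicate block and 6 to 28 with a tumor left out. Without *Trp53fl/fl* replicate 1, *Trp53fl/fl* replicate 3, *VP* replicate 1 and *VP* replicate 2 the count was 8, 10, 9 and 6. The calls split into 12 higher and 13 lower, against 12 and 8 with the rescaling. The labels do not say whether the replicate numbers pair the tumors. Same-numbered tumors deviated from their group means with correlations of 0.019, -0.052 and 0.018, which cannot settle it with 3 tumors per genotype. The replicate block called none of the 9 genes, and no gene of the 6 other lists was called under any alternative. *Epgn* entered the fit only without the filter.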
